A study of Rattus norvegicus with 21 samples.

Results

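Dbp, Tef, Hlf, Nfil3, Ciart, Bhlhe40 and Bhlhe41 are transcription factors and repressors that carry the timing of the circadian clock to other genes. These 7 genes of 32623 were taken by gene symbol from RNA-seq tables of rat liver, where each symbol matched a single row with the same identifier in both tables. The tables hold 21 liver libraries in 7 groups of 3. Control and early weaned Wistar rats were sampled at 23 and at 63 days of age (d23, d63). Control rats, early weaned rats, and early weaned rats given 1.5% leucine in the drinking water were sampled at the last age (d211), all of the Sprague Dawley strain, labelled SD. The labels carry no allele or transgene, and every library is from whole liver. Sex, the age at weaning and the hour of sampling are not given in these sources. Whether the libraries of a group stem from different rats is not stated, so the p-values speak to the scatter among these libraries, part of which may be technical. Strain, the d211 age and the deposited table are the same split and cannot be told apart.

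In the liver clock, a heterodimer of BMAL1 (gene Arntl) with CLOCK or NPAS2 activates genes through E-box elements, and the PER and CRY proteins repress it. Dbp, Tef and Hlf encode the PAR bZIP activators, which are known from mouse liver to bind D-box elements and to maintain genes of drug and heme metabolism. Nfil3 (E4BP4) encodes a bZIP repressor that competes for the same D-boxes and that peaks opposite to DBP through the day. Ciart (CHRONO) and the bHLH repressors Bhlhe40 (DEC1) and Bhlhe41 (DEC2) act one step earlier, on BMAL1 and its E-boxes. Transcripts of these genes are known to swing widely within a day in rodent liver.

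The E-box is the element that the clock's activator and the DEC repressors share, so the E-boxes next to the start sites of these genes are shown. RefSeq promoter windows (build GRCr8, 250 bases before to 50 after a start site) were held for 6 of the 7 genes, all but Hlf. The motifs searched on both strands were the E-box CACGTG, the E-box variant CACGTT, the D-box TTANGTAA and the ROR elements TAGGTCA and TGGGTCA, and none overlapped another in these windows. An E-box was found in the windows of 4 genes, Tef, Ciart, Bhlhe40 and Bhlhe41, against 6.42% of all 33469 windows. The 4 windows were richer in GC than most, at 60.3% to 72.7% against a median of 51.7% over all windows, and the part of GC content in this count was not tested. Ciart held 3 E-boxes, which begin at positions −93, −35 and −21 relative to its start site. Windows with 3 or more made up 0.0568% of all, 19 windows. No window of the 6 held the variant, present in 4.83% of all windows, a D-box (2.24%) or a ROR element (6.6%). The runs below hold the E-boxes in capitals, read 5′ to 3′ on the strand of the gene.
Tef, chr7:115206617-115206646, plus strand: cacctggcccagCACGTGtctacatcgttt
Ciart distal, chr2:186112322-186112351, minus strand: tgtatctagagtCACGTGttgccggcaaag
Ciart proximal, chr2:186112257-186112286, minus strand: ggaggCACGTGcagagccgCACGTGtctgg
Bhlhe40, chr4:143174218-143174247, plus strand: agcgttgtccaaCACGTGagactcatgtga
Bhlhe41, chr4:180569386-180569415, minus strand: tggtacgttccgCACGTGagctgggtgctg
The windows belong to the start site that the RefSeq table lists. That start lies 9647 bases inside the edge of the Tef gene, 1532 bases inside that of Ciart and 60 bases inside that of Bhlhe41, so other start sites of these genes were not searched. The Dbp and Nfil3 windows held none of the motifs. In mouse, the clock elements of Dbp are known to lie within the gene as well, outside such a window.

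**Figure D1:**
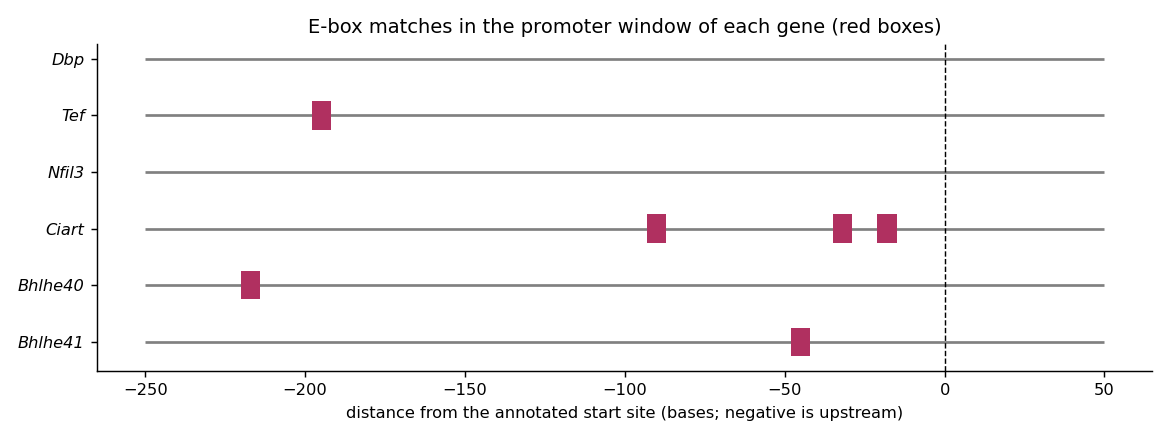
E-box matches (red boxes) by distance from the annotated start site in bases, for the 6 genes with a promoter window. Ciart holds 3 matches, Tef, Bhlhe40 and Bhlhe41 hold 1 each, and Dbp and Nfil3 hold none.

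The deposited tables place these protein-coding genes in a rat build that they do not name. Dbp (ENSRNOG00000021027) is on chromosome 1 at 101687855 to 101692846, Tef (ENSRNOG00000019383) on chromosome 7 at 123043503 to 123058604, and Hlf (ENSRNOG00000002456) on chromosome 10 at 77840568 to 77918191. Nfil3 (ENSRNOG00000011668) is on chromosome 17 at 12261102 to 12276315 and Ciart (ENSRNOG00000042717) on chromosome 2 at 197987705 to 197991574. Both DEC genes are on chromosome 4, Bhlhe40 (ENSRNOG00000007152) at 140703619 to 140709319 and Bhlhe41 (ENSRNOG00000048961) at 180232382 to 180234804.

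Total counts ran from 52054644 to 75118153 units per library, where a sequenced fragment was worth about 4 units, and 10250 to 11082 genes were at an FPKM of at least 1. The sum of 9 hepatocyte markers ran from 58030 to 121500 FPKM, against 26.1 to 110.7 FPKM for 6 markers of sinusoidal endothelium. Of the 3 adipocyte markers, Plin1 was at 0 in every d211 group. Adipoq was at 0 in control and early weaned d211 livers and at no more than 0.0258 FPKM with leucine. Cidec was well measured, at 28.9 to 37.5 FPKM in control, 12.6 to 35.5 in early weaned and 21.7 to 27.8 in leucine livers at d211. The third control library at d23 stood apart in several clock genes and over all genes. It correlated at 0.944 and 0.945 with the other d23 controls, which correlated at 0.973 with each other, and at 0.945 to 0.954 with the d63 controls. It enters every comparison that uses the d23 controls. In whole tissue, fewer cells of a type and less RNA per cell cannot be told apart.

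At d211 the transcripts of the PAR bZIP activators were low in early weaned livers. Dbp, the activator with the widest daily swing in mouse liver, measured 72.6, 68.6 and 139 FPKM in the 3 control livers, 0.871, 0.993 and 14.6 FPKM in the early weaned livers, and 81.5, 67.8 and 175 FPKM in early weaned livers with leucine. All early weaned livers without leucine were below all other d211 livers, and the third of them lay far above the other two. The third library was also the highest of the control group and of the leucine group. Tef measured 17.8, 16.8 and 21.7 FPKM in control livers, 5.18, 5.28 and 9.47 in early weaned livers, and 14.5, 14.5 and 21.6 with leucine. Hlf measured 10.7, 6.01 and 8.74 FPKM in control livers, 1.92, 2.15 and 2.27 in early weaned livers, and 10.2, 8.62 and 9.77 with leucine. For both genes the early weaned livers again fell below the other groups without overlap, and for Hlf they lay within a narrow range.

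In early weaned livers at d211, compared with control, Hlf fell by 2.19 (log2, SE 0.225, adjusted p = 0.0144) and Tef fell by 1.72 (SE 0.255, adjusted p = 0.0357). Dbp had the larger difference, −4.33, with an SE of 1.04, and did not pass (adjusted p = 0.0815). These are log2 changes from edgeR's quasi-likelihood test, with p-values adjusted by Benjamini-Hochberg over the 15019 genes tested in the Sprague Dawley table and a threshold of 0.05. Among the 7 genes these 2 were called, against 0.3% of all genes called lower in this comparison. DESeq2 called Dbp (adjusted p = 0.00123), Tef, Hlf and Bhlhe41, a gene near the limit of detection, against 7.64% of all genes called by that tool. Leaving out single libraries moved these calls. Tef did not pass without control replicate 2 (adjusted p = 0.0933), control replicate 3 (0.111) or early weaned replicate 1 (0.153), and Hlf did not pass without control replicate 3 (0.0539) or early weaned replicate 1 (0.0867). When early weaned replicate 3 was left out, the library of highest Dbp in its group, Dbp changed by −6.81 and passed (adjusted p = 0.00705), giving 3 called genes.

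The repressors did not share a single pattern at d211. Nfil3, the D-box competitor, measured 11.7, 10.4 and 9.87 FPKM in control livers, 21.5, 34.2 and 13.3 in early weaned livers, and 12.9, 7.24 and 7.44 with leucine. Every early weaned liver was above every other d211 liver, the opposite side from the activators, yet the difference from control of 0.93 (SE 0.357) did not pass edgeR's test (adjusted p = 0.223). Without early weaned replicate 2, the library of highest Nfil3, it was 0.46. Ciart measured 1.36, 1.06 and 3.59 FPKM in control livers, 0, 0.103 and 0.508 in early weaned livers, and 0.928, 2.60 and 4.15 with leucine. The early weaned Ciart values stand on 0, 12 and 57 count units, so the first 2 are at or under the floor of 12 units (3 fragments), a limit that covers counting error only. Its difference from control was −3.50 (SE 1.11) and did not pass edgeR's test (adjusted p = 0.147). When early weaned replicate 3 was left out, the difference was −5.32 (adjusted p = 0.172). The early weaned libraries then left were at or under the floor, so that value is not a measured fold. Over all single libraries left out the difference ran from −5.32 to −2.77.

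Bhlhe40, the more abundant DEC gene, measured 28.9, 17.3 and 20.1 FPKM in control livers, 18.3, 21.1 and 27.6 in early weaned livers, and 22.1, 19.9 and 37.4 with leucine. All 3 groups overlapped, and the difference between early weaned and control livers was −0.19 (SE 0.271, adjusted p = 0.795 by edgeR). Bhlhe41 was near the limit of detection, at 18, 50 and 31 count units in control livers, 0, 0 and 3 in early weaned livers, and 29, 32 and 131 with leucine. No fold is given against the early weaned group, whose libraries were all under the floor, and the test did not pass (adjusted p = 0.0784 by edgeR). Bhlhe41 passed the filter on low counts only through the control and leucine libraries, so a lower level in the early weaned group was fixed by the filter, and neither its direction nor its DESeq2 call counts as support.

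Among the 6 genes other than Bhlhe41, Dbp, Tef and Hlf were lower in every early weaned than in every control liver at d211, against 4.24% of all genes. Ciart was lower without overlap too. Its early weaned group, with a library at 0, would not have passed the filter alone, so its direction is not counted as support. Nfil3 was higher in every early weaned liver, which held for 20.8% of all genes. Without Ciart and Bhlhe41, the log2 changes were −4.33 for Dbp, −2.19 for Hlf, −1.72 for Tef, −0.19 for Bhlhe40 and 0.93 for Nfil3. The median over all genes tested was 0.02. Of 6 cholangiocyte markers 5 were higher in early weaned livers (median 0.50), and their summed level was 16.1 to 31.2 FPKM, against 8.49 to 14.4 in controls. That sum was mostly Epcam, an epithelial adhesion molecule, at 24.5, 14.0 and 28.3 FPKM in early weaned and 10.95, 7.14 and 9.78 in control livers (1.04, SE 0.265, adjusted p = 0.0903). The other 5 overlapped between the groups, Tspan8 had the opposite sign (−0.48), and Krt7, Sox9 and Cftr were at no more than 0.129 FPKM. Of 9 hepatocyte markers 8 were lower (median −0.39). EdgeR called 0 genes of either list, with 1 cholangiocyte and 4 hepatocyte markers at an unadjusted p under 0.05 and 1 and 3 called by DESeq2. Over all genes, 17.3% had such a p and DESeq2 called 7.64%. The part of the marker values in the clock gene results was not tested, and neither was that of the hour of collection.

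**Figure D2:**
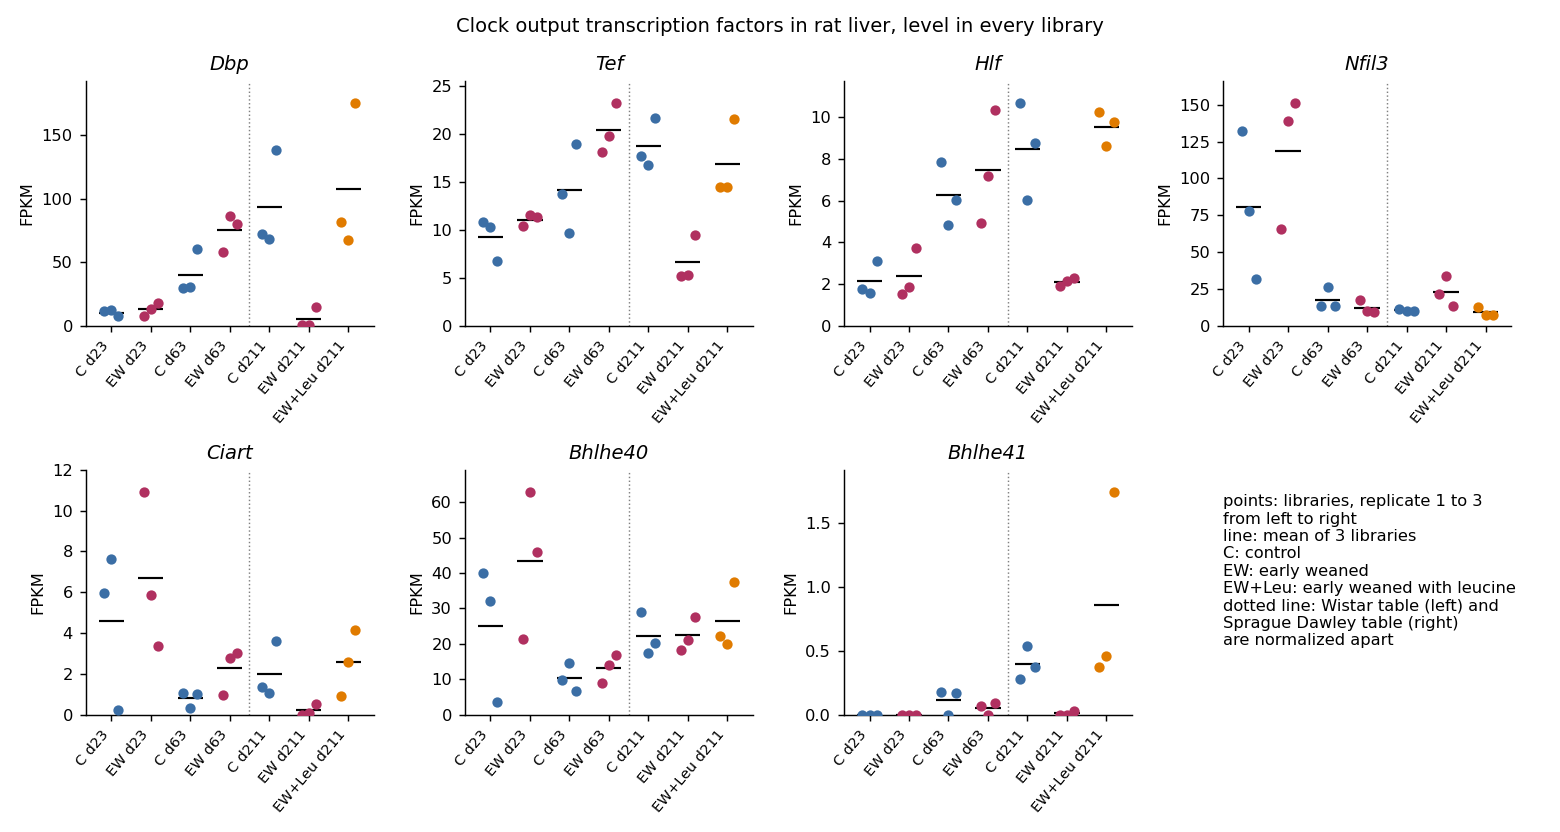
FPKM of each gene in every library, in 7 groups of 3 (C control, EW early weaned, EW+Leu early weaned with leucine), with the group mean as a line and the Wistar and Sprague Dawley tables divided by a dotted line. At d211 the early weaned points of Dbp, Tef, Hlf, Ciart and Bhlhe41 lie below both other groups, those of Nfil3 above, and those of Bhlhe40 overlap with them.

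The leucine group showed whether early weaned livers differed with the supplement. Relative to early weaned livers without leucine, Hlf rose by 2.32 (log2, SE 0.226, adjusted p = 0.00908) and Tef rose by 1.51 (SE 0.254, adjusted p = 0.0492, edgeR). The difference of Dbp was 4.50 (SE 1.05) and did not pass (adjusted p = 0.0867), nor did that of Bhlhe41 (adjusted p = 0.0614). Ciart differed by 3.79 (SE 1.12, adjusted p = 0.164) and Nfil3 by −1.19 (SE 0.359, adjusted p = 0.173), and neither passed. Without early weaned replicate 2, Nfil3 differed by −0.72. Without early weaned replicate 3, Ciart gave 5.62, not a measured fold, since the early weaned libraries left were at or under the floor. Bhlhe40 differed by 0.41 (SE 0.271, adjusted p = 0.61). The 2 called genes compare with 0.18% of all genes called higher. DESeq2 called Dbp, Tef, Hlf and Nfil3, and also Bhlhe41 with the same limit, against 5.27% of all genes. Dbp, Tef and Hlf were higher in every liver with leucine than in every one without, against 5.07% of all genes, and Nfil3 was lower, as were 17.8%. Ciart was higher without overlap too, but is not counted, for the limit set by the filter. The log2 changes of Dbp, Tef, Hlf, Nfil3 and Bhlhe40 given above compare with a median of −0.0022 over all genes. These comparisons share the early weaned libraries with the comparison to control, so they are not independent of it.

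Several cell type marker lists lay higher with leucine than in early weaned livers without it. All 7 Kupffer cell markers were higher (median 0.30), as were all 6 of sinusoidal endothelium (0.37) and all 7 of stellate cells (0.26). All 4 erythroid markers (0.58) and 7 of 9 hepatocyte markers (0.32) were higher as well. Both muscle markers were higher too (3.29, not a measured fold), but near the limit of detection. Without leucine Ckm was at 0 to 0.142 FPKM and Acta1 at 0.0400 to 0.0993, and Ckm was at 0 in a leucine library. For Ckm the early weaned group would not have passed the filter alone, so neither the direction nor the calls of the muscle markers are counted. The summed level with and without leucine was 131.8 to 195.0 and 103.0 to 227.2 FPKM for Kupffer cells, and 58.2 to 71.9 and 44.0 to 68.1 for endothelium. It was 140.5 to 148.4 and 133.8 to 157.2 FPKM for stellate cells, 1779 to 3191 and 1203 to 3130 for erythroid cells, 76080 to 85500 and 72260 to 78210 for hepatocytes, and 0.159 to 2.75 and 0.0400 to 0.241 for muscle. The ranges overlapped for each of these lists. EdgeR called 0 of these markers, with 1 endothelial, 1 muscle and 2 hepatocyte markers at an unadjusted p under 0.05 and 1 muscle and 1 hepatocyte marker called by DESeq2. Over all genes, 13.1% had such a p and DESeq2 called 5.27%. Epcam measured 7.63, 13.2 and 8.73 FPKM with leucine, below every early weaned liver without it. The part of these values in the leucine results was not tested.

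Single libraries again moved the leucine calls. Tef did not pass without early weaned replicate 1 (adjusted p = 0.187) or without leucine replicate 1 (0.101), 2 (0.0972) or 3 (0.124). Hlf did not pass without early weaned replicate 1 (0.0651). When early weaned replicate 3 was left out, Dbp changed by 6.98 and passed (adjusted p = 0.00771).

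Livers with leucine and control livers overlapped in every one of the 7 genes, as did most genes, since 16.3% of all genes did not overlap between these groups. EdgeR called 0 of 7 genes, 0 at an unadjusted p under 0.05, and DESeq2 called 0, against 0.0133% of all genes called by edgeR. The differences were 0.16 for Dbp (SE 0.904), −0.21 for Tef (SE 0.248), 0.13 for Hlf (SE 0.213), −0.26 for Nfil3 (SE 0.355), 0.30 for Ciart (SE 0.978), 0.22 for Bhlhe40 (SE 0.271) and 1.05 for Bhlhe41 (SE 0.906). The SEs of Dbp, Ciart and Bhlhe41 leave room for differences of several fold in either direction, so a missed threshold does not show that the groups were alike.

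**Figure D3:**
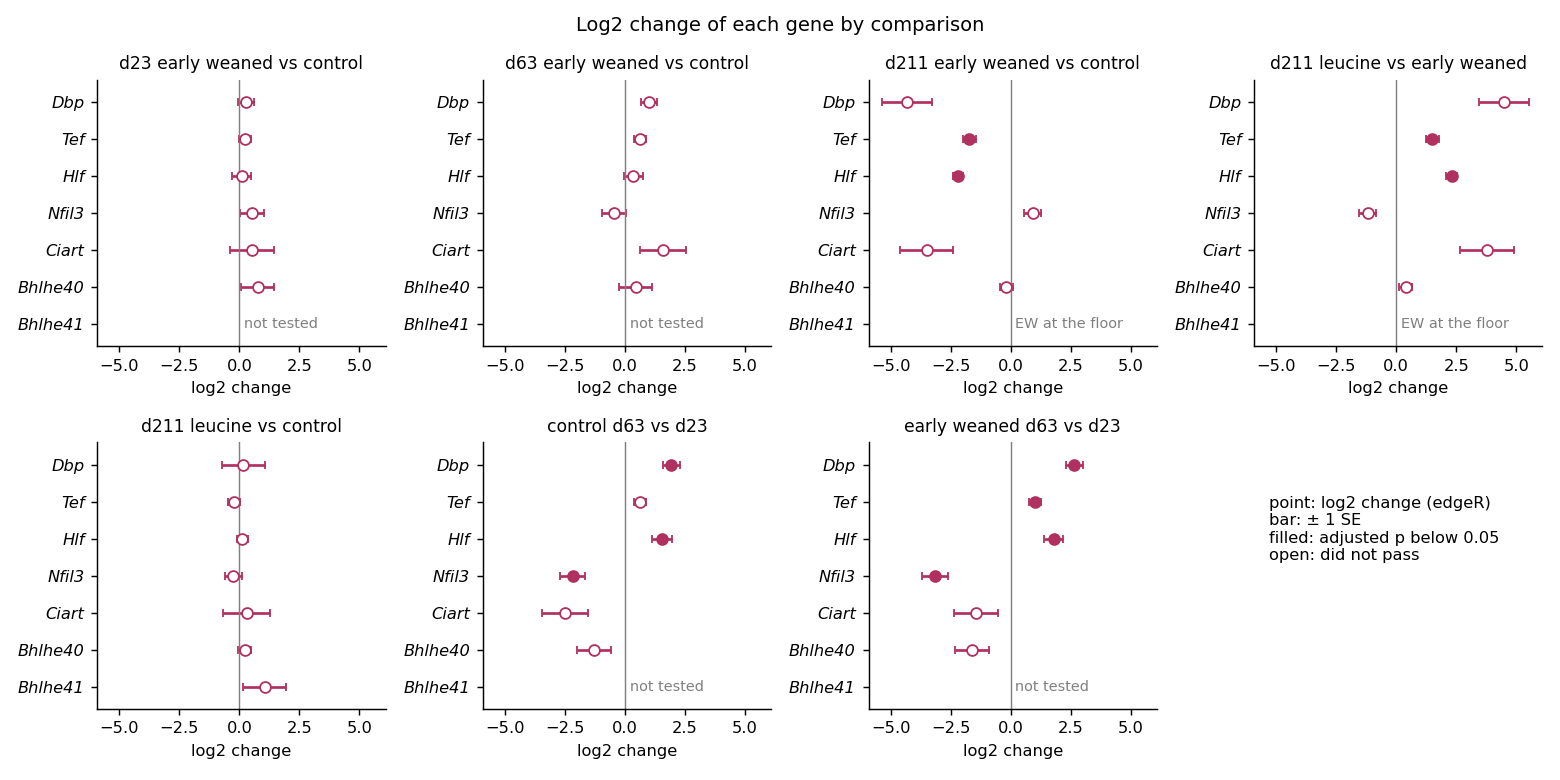
Log2 change (point) with 1 SE (bar) of each gene in 7 comparisons, filled where the adjusted p was below 0.05. Tef and Hlf are filled in both early weaned comparisons at d211, with opposite signs, and every point for leucine against control is open.

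The balance of activator and repressor transcripts followed from these levels. FPKM is scaled by transcript length, so the genes can be set against each other within a library. The ratio of Dbp to Nfil3 FPKM was 6.23, 6.6 and 14.1 in control livers at d211, 0.0405, 0.0291 and 1.1 in early weaned livers, and 6.3, 9.37 and 23.6 with leucine. Dbp thus exceeded Nfil3 in every control and leucine liver, while in the first 2 early weaned livers Nfil3 exceeded Dbp. The makeup of the activator pool also differed. Dbp contributed 71.9%, 75.1% and 82.0% of the summed Dbp, Tef and Hlf FPKM in control livers, 10.9%, 11.8% and 55.5% in early weaned livers, and 76.7%, 74.6% and 84.8% with leucine. In the first 2 early weaned livers Tef was the main activator transcript, at 65.0% and 62.7% of the sum. The sum itself was 91.4 to 169.2 FPKM in control livers and 7.98, 8.43 and 26.4 FPKM in early weaned livers.

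**Figure D4:**
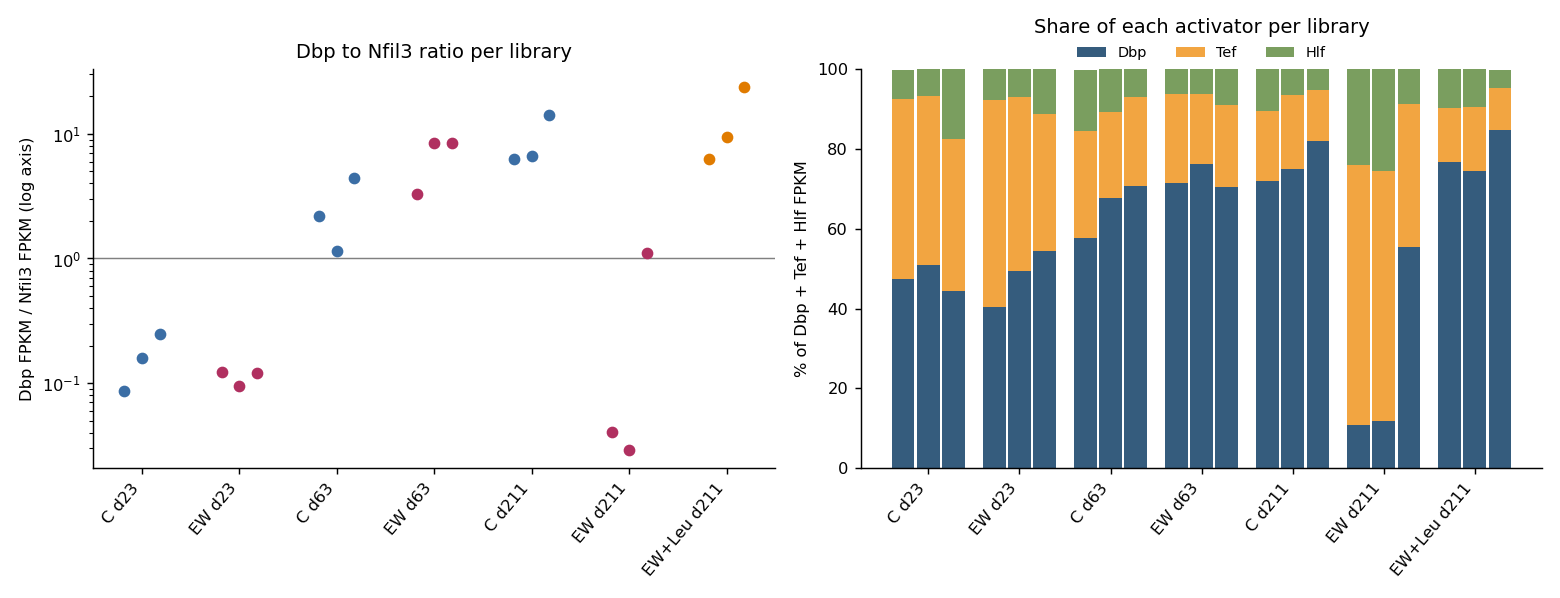
Ratio of Dbp to Nfil3 FPKM per library (left, log axis) and the share in percent of Dbp, Tef and Hlf in their summed FPKM (right, 1 bar per library, replicates 1 to 3 from left to right). The ratio is below 1 in all 6 d23 libraries and in 2 of 3 early weaned d211 libraries, and in those 2 Tef holds the largest share.

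The other clock genes were examined as a list of 12. In early weaned against control livers at d211, 5 were higher and 7 lower, 1 rose and 1 fell by edgeR, and their median was −0.49, while DESeq2 called 9. The edgeR calls compare with 0.419% of all genes called higher and 0.3% lower, and the DESeq2 calls with 7.64% of all genes. In the positive limb, Npas2 rose by 2.40 (SE 0.417, adjusted p = 0.0443), from 2.19, 1.47 and 1.68 FPKM in control livers to 13.7, 9.41 and 9.55 in early weaned livers, and it measured 3.26, 2.75 and 0.841 with leucine. Arntl, the gene of BMAL1, measured 3.23, 1.89 and 1.11 FPKM in control livers, 10.6, 10.3 and 7.21 in early weaned livers and 2.78, 3.45 and 0.545 with leucine. The early weaned libraries were the highest for both genes without overlap, and the Arntl difference from control of 1.98 (SE 0.588) did not pass (adjusted p = 0.128). Clock fell by 2.52 (SE 0.35, adjusted p = 0.0354), from 2.56, 2.55 and 2.22 FPKM to 0.506, 0.673 and 0.282. Unlike Dbp, Tef and Hlf, Clock also measured low with leucine, at 0.459, 0.469 and 0.265 FPKM. Its difference of leucine from early weaned livers was −0.16 (SE 0.336, adjusted p = 0.921).

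Both positive limb calls depended on single libraries. Npas2 passed only with all libraries or without early weaned replicate 2 (adjusted p = 0.0278), and gave 0.0663, 0.126 and 0.146 without control replicates 1, 2 and 3 and 0.161 and 0.114 without early weaned replicates 1 and 3. Clock did not pass without control replicate 2 (0.0933), control replicate 3 (0.105) or early weaned replicate 1 (0.142).

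Among the repressors of the core loop, edgeR called 0 of the 5 Per and Cry genes at d211 in early weaned against control livers. Of the 5, 3 were at an unadjusted p under 0.05 and DESeq2 called 3, against 17.3% and 7.64% of all genes. Per3 measured 2.22, 1.3 and 3.2 FPKM in control livers, 0.104, 0.152 and 0.666 in early weaned livers and 1.98, 2.28 and 4.44 with leucine, a difference of −3.08 from control (SE 0.672, adjusted p = 0.0701). Cry2 measured 6.5, 6.77 and 8.91 FPKM in control livers, 3.77, 4.08 and 5.61 in early weaned livers and 11.2, 11.5 and 13.3 with leucine. The leucine livers were the highest in Cry2 without overlap. Cry2 rose by 1.58 against early weaned livers without leucine (SE 0.188, adjusted p = 0.0189), the only edgeR call among the 12 genes in that comparison. EdgeR called 0.18% of all genes higher there, and DESeq2 called 7 of the 12, against 5.27% of all genes. Cry2 did not pass without early weaned replicate 1 (0.0847) or leucine replicate 1 (0.0587), 2 (0.0649) or 3 (0.0517). Nr1d1, the nuclear receptor REV-ERB alpha that represses Arntl and Nfil3 in mouse liver, measured 74.6, 74.8 and 84.4 FPKM in control livers, 14.2, 17.3 and 53.8 in early weaned livers and 76.9, 70.0 and 81.4 with leucine. The third early weaned library of Nr1d1 was again the one nearest to control, as for Dbp, Tef and Per3. In each of these genes the third library was also the highest of the control group and of the leucine group. Between early weaned and control livers edgeR called 0 of the 4 nuclear receptor genes. Of the 4, 3 were at an unadjusted p under 0.05 and DESeq2 called 3, against 17.3% and 7.64% of all genes.

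**Figure D5:**
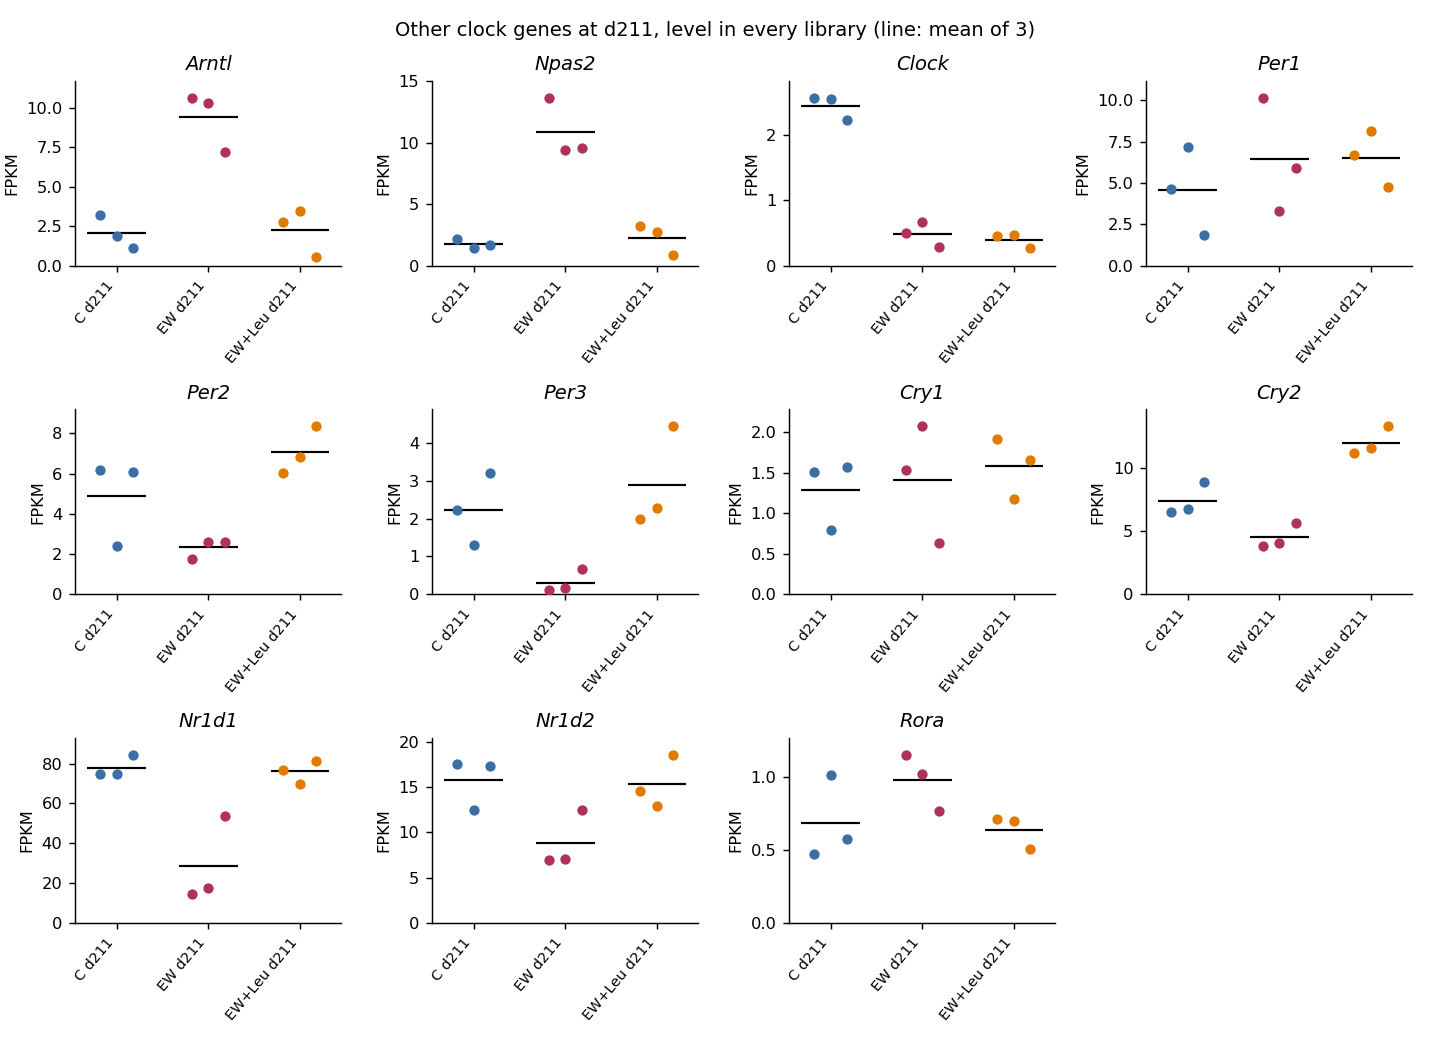
FPKM of 11 other clock genes at d211 in every library of the control (C), early weaned (EW) and early weaned with leucine (EW+Leu) groups, with the mean of 3 as a line. Arntl and Npas2 are highest in early weaned livers, Per3 lowest, and Clock is low in both early weaned groups.

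Genes of the kinds reported to depend on the PAR bZIP activators in mouse liver were followed as a list of 16, of which 14 were tested. At d211, between control and early weaned livers, 11 were lower and 3 higher, with a median of −0.69. DESeq2 called 4 of the 14, against 7.64% of all genes. A single gene, Cyp2b2, a cytochrome P450 of drug metabolism, passed the edgeR test, with a change of −3.22 (SE 0.552, adjusted p = 0.0438), against 0.3% of all genes called lower. It measured 8.88, 12 and 29.3 FPKM in control livers, 1.6, 3.27 and 1.19 in early weaned livers and 5.56, 7.15 and 9.92 with leucine. The Cyp2b2 call was lost without control replicate 2 (0.102) or 3 (0.13) and without replicate 1 (0.172) or 3 (0.14) of the early weaned group, and reads shared with its close paralogue Cyp2b1 make the value uncertain. Por, the reductase that supplies electrons to microsomal P450s, differed by −1.74 (SE 0.334) and did not pass (adjusted p = 0.0545).

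With leucine, 12 of these 14 genes were higher than in early weaned livers without it (median 0.46). EdgeR called 0, with 7 at an unadjusted p under 0.05 and 3 called by DESeq2, against 13.1% and 5.27% of all genes. The smallest p-values belonged to Cyp2c7, a female-predominant P450 of rat liver, at 1.24 (SE 0.319, adjusted p = 0.118), and to Cyp2b2, at 2.02 (SE 0.53, adjusted p = 0.124). The comparison with control shares libraries with this one.

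Further lists cover other rhythmic liver transcripts and genes that respond to glucocorticoid, cAMP, cytokines, stress or hypoxia. Of 8 other rhythmic liver transcripts edgeR called 0 at d211 between control and early weaned livers, with 2 at an unadjusted p under 0.05 and 1 called by DESeq2. The smallest p was that of Usp2, a deubiquitinase under clock control in mouse liver, at −2.02 (SE 0.407, adjusted p = 0.0585), followed by Coq10b at −0.34 (SE 0.143, adjusted p = 0.264). Of 10 genes that respond to glucocorticoid or cAMP, 5 were higher and 5 lower with a median of −0.01, and edgeR called 0, with 0 at an unadjusted p under 0.05 and 0 called by DESeq2. Of 13 cytokine, stress and hypoxia responsive genes, 9 were higher in early weaned than in control livers at d211, 3 of them without overlap, and edgeR called 0, with 4 at an unadjusted p under 0.05 and 4 called by DESeq2. Over all genes in this comparison, 20.8% were higher without overlap, 17.3% had an unadjusted p under 0.05 and DESeq2 called 7.64%. With leucine 2 of the 13 fell relative to early weaned livers without it, against 0.18% of all genes called lower, while DESeq2 called 4, against 5.27%. These were the immediate early genes Jun, by 2.39 (SE 0.331, adjusted p = 0.0294), and Egr1, by 1.71 (SE 0.288, adjusted p = 0.0492). Leaving out early weaned replicate 2 kept both calls (0.0138 and 0.00856). Leaving out early weaned replicate 1 or 3 or leucine replicate 1, 2 or 3 ended both, with adjusted p from 0.0814 for Jun (early weaned replicate 3 left out) to 0.182 for Egr1 (replicate 1 left out).

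In Wistar livers at d23 and d63, early weaned and control groups overlapped in all 6 tested genes, as they did in most genes, since 8.3% of all genes at d23 and 18.6% at d63 (4.93% higher and 13.7% lower in early weaned livers) did not overlap. Bhlhe41 was not tested there, because it was listed at 0 in all 6 d23 libraries and at no more than 0.18 FPKM at d63. At d23, Dbp measured 11.4, 12.3 and 7.85 FPKM in control livers and 8.04, 13.1 and 18.1 in early weaned livers, a difference of 0.28 (SE 0.343). Nfil3 measured 132, 78.0 and 31.7 FPKM in control livers and 65.5, 139 and 151 in early weaned livers, a difference of 0.52 (SE 0.501). Ciart measured 5.98, 7.63 and 0.22 FPKM in control livers and 10.9, 5.87 and 3.35 in early weaned livers, a difference of 0.52 (SE 0.91). Bhlhe40 measured 39.9, 31.95 and 3.55 FPKM in control livers and 21.3, 62.85 and 46.05 in early weaned livers, a difference of 0.76 (SE 0.69). Tef and Hlf differed by 0.23 (SE 0.244) and 0.09 (SE 0.407). The third control library was the lowest of the 6 in Dbp, Tef, Nfil3, Ciart and Bhlhe40, and Bhlhe40 was at 3.55 FPKM there against 21.3 to 62.85 in the other 5. EdgeR called 0 of 6 genes at d23, 0 at an unadjusted p under 0.05, and DESeq2 called 0, against 0.013% of all genes called by edgeR. Of 9 hepatocyte markers at d23, 5 were higher and 4 lower in early weaned livers. Their sum, mostly Alb, was 58030 to 67570 FPKM against 76030 to 121500 in controls. EdgeR called 0 hepatocyte and 0 stellate cell markers, with 3 of each at an unadjusted p under 0.05, against 6.2% of all genes. The part of these markers in the d23 values was not tested.

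At d63, Dbp measured 29.6, 30.3 and 60.6 FPKM in control livers and 58.2, 86.9 and 80.4 in early weaned livers. The difference was 1.00 (SE 0.344, adjusted p = 0.717), with 2 of 3 early weaned livers above every control liver. Tef measured 13.8, 9.72 and 19.0 FPKM in control livers and 18.1, 19.9 and 23.2 in early weaned livers, a difference of 0.62 (SE 0.245, adjusted p = 0.786). In both genes the early weaned values sat towards the top of the combined range. Ciart measured 1.08, 0.32 and 1.02 FPKM in control livers and 0.98, 2.79 and 3.04 in early weaned livers, a difference of 1.59 (SE 0.947, adjusted p = 0.886). Hlf, Nfil3 and Bhlhe40 differed by 0.35 (SE 0.4), −0.44 (SE 0.501) and 0.45 (SE 0.689). Dbp and Tef were the 2 genes at an unadjusted p under 0.05, as were 6.05% of all genes, and neither edgeR (0 of 6, against 0.0% of all genes) nor DESeq2 called any. Marker lists differed beside them at d63, where all 7 Kupffer cell markers were lower in early weaned livers (median −0.50, summed level 162.4 to 232.2 FPKM against 215.1 to 452.3 in controls), as were all 6 endothelial markers (−0.57, 37.65 to 56.7 against 49.97 to 83.2 FPKM). All 7 lymphocyte markers (−1.17, 4.25 to 6.53 against 4.75 to 10.9 FPKM) and all 4 erythroid markers (−0.94, 899 to 3614 against 642 to 8498 FPKM) were lower too. Of the lymphocyte markers, Cd3g and Ms4a1 were at 0 in an early weaned d63 library. That group alone would not have passed the filter in them, so their direction is not counted. EdgeR and DESeq2 called 0 of these markers, with 2 Kupffer cell and 3 endothelial markers at an unadjusted p under 0.05, and their part in the Dbp and Tef differences was not tested. The differences of Dbp and Tef had the sign opposite to that at d211, in another strain and table. The change of the early weaning effect between d23 and d63 was tested as an interaction, in which edgeR called 0 of 6 genes, 0 at an unadjusted p under 0.05, and DESeq2 called 0, against 0.00649% of all genes called by edgeR. Its estimates ran from −0.96 for Nfil3 (SE 0.709) to 1.07 for Ciart (SE 1.3).

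Between ages, unlike between weaning groups, edgeR called several of these genes in Wistar livers. In control livers between d23 and d63, Dbp rose by 1.93 (log2, SE 0.354, adjusted p = 0.00862) and Hlf rose by 1.53 (SE 0.412, adjusted p = 0.0306), while Nfil3 fell by 2.17 (SE 0.521, adjusted p = 0.0215). Hlf measured 1.79, 1.59 and 3.12 FPKM at d23 and 7.86, 4.83 and 6.04 at d63, and Nfil3 at d63 measured 13.6, 26.5 and 13.7 FPKM. The d63 control livers lay above all d23 control livers in Dbp and Hlf and below them in Nfil3, where 16.7% of all genes were higher and 15.7% lower without overlap. Among 6 genes 2 rose and 1 fell, against 7.97% and 9.61% of all genes, adjusted over the 15416 genes tested in the Wistar table. Tef differed by 0.61 (SE 0.245, adjusted p = 0.104), Ciart by −2.50 (SE 0.97, adjusted p = 0.0943) and Bhlhe40 by −1.28 (SE 0.698, adjusted p = 0.215). Without control d23 replicate 3, the library that stood apart, Ciart (−3.06, adjusted p = 0.00406) and Bhlhe40 (−1.80, 0.011) passed as well, which made 5 calls. Hlf and Nfil3 did not pass without control d23 replicate 1 (0.114 and 0.0882), control d23 replicate 2 (0.113 and 0.0582), control d63 replicate 1 (0.101 and 0.0794) or control d63 replicate 3 (0.0706 and 0.0782).

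In early weaned livers between the same ages, Dbp rose by 2.65 (SE 0.363, adjusted p = 0.00178), Tef rose by 1.00 (SE 0.246, adjusted p = 0.0155) and Hlf rose by 1.79 (SE 0.414, adjusted p = 0.0122), while Nfil3 fell by 3.13 (SE 0.542, adjusted p = 0.00432). Hlf measured 1.52, 1.85 and 3.74 FPKM at d23 and 4.92, 7.16 and 10.3 at d63, and Nfil3 at d63 measured 17.6, 10.3 and 9.47 FPKM. All 6 tested genes separated the ages without overlap, with Dbp, Tef and Hlf higher at d63, against 21.3% of all genes, and Nfil3, Ciart and Bhlhe40 lower, against 31.0%. These 3 rises and 1 fall among 6 genes compare with 13.5% of all genes higher and 13.5% lower. The Tef call was lost without early weaned d23 replicate 1 (0.0542) or early weaned d63 replicate 3 (0.0551). Ciart differed by −1.43 (SE 0.928, adjusted p = 0.265) and Bhlhe40, at 8.89, 13.9 and 16.8 FPKM at d63, by −1.60 (SE 0.703, adjusted p = 0.111). The ratio of Dbp to Nfil3 FPKM was 0.0868 to 0.247 in the 6 d23 libraries and 1.14 to 8.49 in the 6 d63 libraries.

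Cell type markers also differed between the ages. In control livers all 7 lymphocyte markers were higher at d63 (median 3.06, not a measured fold). EdgeR called 3, and the summed level was 4.75 to 10.9 FPKM against 1.24 to 2.69 at d23. Cd3e, Cd3g, Cd79b, Ms4a1 and Nkg7 were each at 0 in a d23 control library. Cd3g, Cd79b and Ms4a1 were also at 0 in an early weaned d23 library. Those groups alone would not have passed the filter in these genes, so their directions and calls are not counted as support. Of 6 endothelial markers 5 were lower and 2 fell, with sums of 49.97 to 83.2 against 89.45 to 100.7 FPKM, and of 9 hepatocyte markers 2 rose and 1 fell. Over all genes in control livers, edgeR called 7.97% higher and 9.61% lower at d63. In early weaned livers 6 of 7 lymphocyte markers were higher and 1 rose, all 6 endothelial markers were lower and 3 fell (37.65 to 56.7 against 86.3 to 110.7 FPKM), and 5 hepatocyte markers rose and 2 fell (84620 to 92550 against 58030 to 67570 FPKM). Over all genes in early weaned livers, edgeR called 13.5% higher and 13.5% lower. The part of these values in the age changes of the clock output genes was not tested.

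Of the 12 other clock genes, edgeR called 4 lower in control livers at d63 than at d23, against 9.61% of all genes, and 4 lower and 1 higher in early weaned livers, against 13.5% each way. Arntl fell by 1.69 in control (SE 0.53, adjusted p = 0.0499) and by 2.20 in early weaned livers (SE 0.542, adjusted p = 0.0156). The control value was past the threshold by little and was lost without any single library but control d23 replicate 3 (0.0438). The early weaned value did not pass without d23 replicate 1 (0.0512) or d63 replicate 2 (0.0634). Cry1, a core repressor, fell by 2.58 in control livers (SE 0.363, adjusted p = 0.00249), and it remained past the threshold when any single library was left out.

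Over all 7 groups, the order of the group means differed by gene. Dbp ran from 108 ± 58.5 FPKM (SD, n = 3) in leucine livers and 93.3 ± 39.4 in d211 controls, through 75.2 ± 15.0 and 40.2 ± 17.7 in early weaned and control d63 livers, to 13.1 ± 5.04 and 10.5 ± 2.38 at d23 and 5.49 ± 7.90 in early weaned d211 livers. The ranges of mean ± SD overlapped between neighbours in that order, except between early weaned and control d63 livers and between control d63 and early weaned d23 livers, and levels set across the 2 strains come from tables normalized apart. Hlf kept the same order, from 9.53 ± 0.823 FPKM in leucine livers to 2.12 ± 0.178 in early weaned d211 livers, with the d23 groups beside the latter at 2.17 ± 0.832 and 2.37 ± 1.2. By the ratio of the highest to the lowest group mean, Tef spanned the least of the 3 activators (3.07, against 4.5 for Hlf and 19.7 for Dbp), from 20.4 ± 2.59 FPKM in early weaned d63 livers to 6.64 ± 2.45 in early weaned d211 livers. Nfil3 ran the other way, from 118 ± 46.2 and 80.5 ± 50.1 FPKM in the early weaned and control d23 livers to 9.21 ± 3.24 with leucine, with early weaned d211 livers, at 23.0 ± 10.5, directly after the d23 groups. Ciart and Bhlhe40 were highest in early weaned d23 livers, at 6.71 ± 3.85 and 43.4 ± 20.9 FPKM.

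To find genes of a like pattern, the mean of the standardized log2(FPKM + 1) of Dbp, Tef and Hlf was set against each of 10385 genes with a mean FPKM of at least 1 in both tables. Pearson's r was taken over the 12 Wistar and the 9 Sprague Dawley libraries apart, and genes were ranked by the weaker of their 2 values. These correlations are descriptions, since the libraries share groups, ages and the samples that defined the pattern. The highest were Hsd17b2, a dehydrogenase that inactivates sex steroids (r = 0.936 and 0.985), Jade1, a subunit of a histone acetyltransferase complex (0.901 and 0.957), NEWGENE_2134 (0.893 and 0.883), LOC100360095 (0.931 and 0.883) and Acot12, a cytosolic acetyl-CoA thioesterase (0.872 and 0.922). The lowest were Arntl (−0.955 and −0.926), the taurine transporter Slc6a6 (−0.918 and −0.964), Pdcl3 (−0.934 and −0.907), the condensin subunit Ncapd2 (−0.951 and −0.871) and Arhgef3, a guanine nucleotide exchange factor (−0.912 and −0.863). Nfil3 itself reached −0.811 and −0.867.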

How the data were processed

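RNA was measured in 21 rat liver libraries. The authors deposited 1 table per strain with counts and FPKM per gene and library, per the file headers. By its name, the deposited FPKM unit is scaled to transcript length and library depth, a step of the authors. The deposited counts, whole numbers that were not normalized, pile up at multiples of 4, so they were taken as an estimated count of about 4 units per fragment. Which aligner and counter made them is not given in the sources used here. Mouse builds (GRCm38, mm10) appear in the submitters' processing notes, but genes and coordinates in the tables are those of rat.

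The 7 genes, the gene lists, the rule for named genes (all 7 genes, listed genes past the threshold or of smallest p, and the 5 genes most and least like the activators) and the tests were chosen with earlier results of these data known. Groups were taken from the labels. Each table was fitted alone in edgeR 4.0.16 (R 4.3.3) with TMM normalization, filterByExpr (minimum count 10), a mean per group and the two-sided quasi-likelihood test, which was also tested on simulated data. Alternatives were other size factors, no filter, DESeq2 1.42.0, counts divided by 4, a replicate block, limma 3.58.1 on log2(FPKM + 1) and log2(FPKM + 0.1), the compared groups alone, and each library left out. SE is the log2 change over the root of the F statistic. Depth differed little between libraries, and the biological coefficient of variation of 0.404 (Wistar) and 0.379 (Sprague Dawley) set the precision. No libraries were close enough to be a single one deposited again (highest correlation 0.974 within and 0.972 between groups, at most 2.11% identical counts). Reads shared between P450 paralogues, and between overlapping genes, could not be separated. Sequences are from the RefSeq promoter table, build GRCr8. Of 128 listed symbols 123 were matched. The values of 1 listed clock gene are not reported here, though the counts over its list include it.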

Additional observations from a re-analysis of the deposited data

How the results depend on the processing

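The calls at d211 depended on the tool and on single libraries. Early weaned against control gave 2 called genes, 4 by DESeq2 with Bhlhe41 among them, 1 (Hlf) with the compared groups alone, and 0 to 3 with a library left out. Leucine against early weaned gave 2, 5 by DESeq2 with Bhlhe41 again, 1 (Hlf) with RLE size factors, where Tef had an adjusted p of 0.0516, 1 with the compared groups alone, and 0 to 3 with a library left out. Controls at d63 against d23 gave 3, 1 (Dbp) with the compared groups alone, and 1 to 5 with a library left out. The cause of these shifts was not tested. Over all genes the calls of early weaned against control ran from 2 without early weaned replicate 1 to 534 without early weaned replicate 2. For Bhlhe40 in that comparison the sign turned with limma on FPKM, to 0.027 with a pseudocount of 1 and 0.028 with 0.1, a scale that moved the median of all genes to 0.13 and 0.22. With a library left out Bhlhe40 ran from −0.33 to 0.016 there. Other small differences also turned with a library left out. At d23, Dbp ran from −0.0026 to 0.53, Hlf from −0.37 to 0.45 and Ciart from −0.042 to 1.05. For leucine against control, Dbp ran from −0.38 to 0.56, Hlf from −0.045 to 0.29, Ciart from −0.25 to 1.02 and Bhlhe40 from −0.12 to 0.42. The labels do not say whether equal replicate numbers pair libraries. Over all genes, deviations of 27 same-numbered pairs correlated at −0.108 to 0.127, and only 2 pairs exceeded 0.1. These values cannot settle pairing for single genes. In Dbp, Tef and Ciart, replicate 3 was the highest library of each d211 group. With the number as a replicate block, 3 genes were called in each early weaned comparison at d211, Dbp joining with adjusted p of 0.0401 and 0.0406. The interaction uses all 4 Wistar groups, so it has no fit of the compared groups alone. Depth limits Bhlhe41, and Ciart in early weaned d211 livers.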

Other observations

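Among the 12 other clock genes, early weaned Wistar livers at d63 had 9 higher and 3 lower values than controls (median 0.50, against −0.01 over all genes). EdgeR called 0, with 3 at an unadjusted p under 0.05, against 6.05% of all genes. DESeq2 called 2, but the share of all genes that it called at d63 is not given, so that count is not read as a result. Cry1 measured 0.69, 1.09 and 0.5 FPKM in control livers and 1.51, 2.22 and 3.7 in early weaned livers (1.80, SE 0.354, adjusted p = 0.48), and Per2 measured 2.9, 3.18 and 4.02 FPKM in control livers and 6.09, 8.71 and 15.4 in early weaned livers (1.68, SE 0.334, adjusted p = 0.48). Per3 measured 1.6, 2.68 and 2.84 FPKM in control livers and 3.23, 5.14 and 6.54 in early weaned livers (1.16, SE 0.425, adjusted p = 0.743). These genes and Nr1d2 were higher in early weaned livers without overlap, against 4.93% of all genes. Npas2 was lower without overlap, at 2.47, 2.12 and 1.27 FPKM in control and 1.08, 0.6 and 0.1 in early weaned livers (−1.65, SE 0.881, adjusted p = 0.859), against 13.7% of all genes. Nr1d2, Per3 and Npas2 are named because they did not overlap, which was seen first.

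The genes reported to depend on the PAR bZIP activators moved both ways with age. Of 14 tested, 3 rose and 3 fell in control livers between d23 and d63, against 7.97% of all genes higher and 9.61% lower, and 4 rose and 3 fell in early weaned livers, against 13.5% each way. Cyp2b3 rose by 1.67 in control (SE 0.147, adjusted p = 0.000317) and by 1.97 in early weaned livers (SE 0.148, adjusted p = 0.000168). Cyp2c7 rose by 6.24 (SE 0.683, adjusted p = 0.00077) and by 5.21 (SE 0.65, adjusted p = 0.00117), and measured 36.7, 33.7 and 41.5 FPKM in d23 controls. Both P450 genes stayed past the threshold when any single library was left out, and their values carry the doubt about reads shared with paralogues.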
